A study of Homo sapiens and Mus musculus with 26 samples.

Results

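EGFR, ADAM9 and DUSP6 are 3 of the 8074 genes listed in a table of messenger RNA (mRNA) levels from MHCC97H cells, an established human hepatocellular carcinoma cell line. They were chosen by name, with their input and polysome values in all 12 libraries already known, so those values describe them and are given without a test. The libraries came from control cells, labelled NC and wild type, and from cells in which METTL1 was knocked down by a short hairpin RNA, labelled shMETTL1-2 and written shMETTL1 from here on. From each, total input RNA and the mRNA bound to polyribosomes (polysomes, the mRNAs carrying several ribosomes) were sequenced in 3 repeats, which gave 4 groups of 3 libraries. All cells were grown in the same medium. The knockdown libraries all carry this label of 1 hairpin, the time after knockdown is not given in the labels, and nothing there says that the repeats were separate cultures, so the spread between repeats may be technical. The stated aim of the polysome sequencing was to find genes translated differently in knockdown and control cells.

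EGFR encodes the epidermal growth factor receptor, a receptor tyrosine kinase that passes growth signals through RAS, RAF and MEK to the kinase ERK. ADAM9 encodes a membrane metalloprotease known for cutting proteins off the cell surface, among them membrane-bound ligands of EGFR such as HB-EGF. DUSP6 encodes a cytoplasmic phosphatase that removes the activating phosphates from ERK, and its gene is switched on by ERK signalling, so that it works as a feedback brake. METTL1 encodes the enzyme that adds a methyl group to guanosine (N7-methylguanosine) in some transfer RNAs, the adaptors used in translation. EGFR signalling is known for driving growth of hepatocytes and of liver cancer cells. The label that pairs ADAM9 with EGFR rests on protein function, which RNA levels do not measure.

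The stretches before the start sites of EGFR and DUSP6 are shown because input RNA begins with transcription from them, and the sequences let the reader set the receptor beside its feedback phosphatase. They are the 250 bases before the start in RefSeq's table for GRCh38.p14, 5′ to 3′ on the gene's strand, at chr7:55018767-55019016 (plus strand) for EGFR and chr12:89352502-89352751 (minus strand) for DUSP6. Capitals mark matches to a GC box (GGGCGG or its reverse complement CCGCCC) or a CCAAT box (CCAAT or ATTGG).
EGFR: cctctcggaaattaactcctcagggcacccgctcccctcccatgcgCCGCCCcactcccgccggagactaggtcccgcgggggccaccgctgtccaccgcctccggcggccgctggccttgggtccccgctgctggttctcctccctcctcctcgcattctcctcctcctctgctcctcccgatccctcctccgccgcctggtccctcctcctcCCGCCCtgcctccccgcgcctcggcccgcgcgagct
DUSP6: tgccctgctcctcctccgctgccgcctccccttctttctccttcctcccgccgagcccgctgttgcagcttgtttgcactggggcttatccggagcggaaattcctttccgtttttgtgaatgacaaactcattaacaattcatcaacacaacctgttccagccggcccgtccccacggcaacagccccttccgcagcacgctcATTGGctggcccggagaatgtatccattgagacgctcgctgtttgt
The EGFR stretch is 73.6% G and C, higher than 86.9% of the 35116 promoters of this length in the table, whose median is 58%. It holds 2 GC boxes, the first bases of which lie 204 and 36 bases before the start, and no CCAAT box. The DUSP6 stretch is 57.2% G and C, higher than 47.2% of promoters, and holds no GC box and 1 CCAAT box on the reverse strand, 46 bases before the start. Neither stretch holds TATAAA on either strand. Among all promoters of the table, 42.6% hold a GC box, 32.0% a CCAAT box and 10.7% TATAAA, so both kinds of match are common, and a match is a run of letters and not a measured binding site.

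Levels are given as FPKM, fragments per kilobase of transcript scaled to the mapped fragments of the library, as deposited. FPKM states each mRNA as a share of its own library, so a polysome value is a share of the polysome-bound mRNA and does not measure how much mRNA was on polysomes in all. In such bulk RNA, fewer cells with a transcript and less of it per cell cannot be told apart. The table lists no value below 1, and since read depth is unknown the counting error of the values could not be given. METTL1 itself was listed at 47.9, 39.3 and 36.0 FPKM in control input (repeats 1, 2 and 3) and at 11.9, 18.3 and 15.3 in knockdown input, and at 45.3, 43.8 and 38.2 against 8.29, 22.9 and 25.6 on polysomes. Every knockdown library was below every control library of its kind, in the direction of the labels. Repeat 1 stood apart from repeats 2 and 3 in every group: the SD across genes of the log2 difference between libraries was 1.20 for control input repeats 1 and 2 and 0.126 for repeats 2 and 3. Of 15 hepatocyte or hepatoma markers only FGA, HNF4A, KRT8 and KRT18 were listed, while ALB, AFP and the apolipoproteins were not. The listed ones summed to 2963 to 20027 FPKM and overlapped between the groups. KRT20 and CDX2, markers of intestinal epithelium, were listed, 2 of 5 in a list of other epithelia. Their summed level was 39.2 to 165 FPKM in control input, 29.1 to 145 in knockdown input, 197 to 225 on control polysomes and 97.97 to 169 on knockdown polysomes, so on polysomes it was lower in knockdown cells without overlap. CD68 and CD74, 2 of 8 leukocyte markers, summed to 47.7 to 105 FPKM and overlapped between the groups. The part of these markers in the results was not tested. No fibroblast or endothelial marker was listed.

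On polysomes all 3 genes were lower in knockdown cells than in control cells in every repeat, and the groups did not overlap, whereas their input levels differed less within a repeat. The summed level of KRT20 and CDX2 was lower on knockdown polysomes as well (97.97 to 169 against 197 to 225 FPKM), and its part in the result was not tested. ADAM9 showed the widest gap, EGFR was lower to nearly the same proportion in each repeat, and DUSP6 showed the smallest gap. Among all 8074 genes, 26.5% had polysome groups that did not overlap with knockdown lower, and since the genes were picked with these values known, the count of 3 of 3 is not read against that share.

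EGFR mRNA on polysomes stood at 7.79, 8.50 and 8.53 FPKM in the control repeats and at 3.09, 3.43 and 3.39 in the knockdown repeats. The 3 control values lay close together and far above the 3 knockdown values. The means were 8.27 ± 0.419 and 3.30 ± 0.186 FPKM (SD, n = 3 each), so the receptor's mRNA took 2.50 times as large a share of control polysome mRNA. Within each repeat the knockdown level was 39.7%, 40.4% and 39.7% of the control level. On the log2(FPKM + 1) scale, which understates the change of weakly expressed genes, the polysome difference was -1.10, -1.10 and -1.12, with a mean of -1.11. That placed EGFR 198th of 8074 genes counted from the most negative difference.

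In input RNA, EGFR stood at 7.72, 1.95 and 2.31 FPKM in control cells and at 5.70, 1.59 and 1.72 in knockdown cells. Repeat 1 was far higher than the other repeats in both groups, so the groups overlapped, and the means of 3.99 ± 3.23 and 3.00 ± 2.34 FPKM (SD, n = 3 each) carry a spread close to their own size. Within each repeat the knockdown level was nonetheless below the control level, at 0.738, 0.815 and 0.745 of it. The input difference was -0.38, -0.19 and -0.28 (mean -0.28) on the log2 scale.

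ADAM9 on polysomes stood at 64.8, 48.2 and 48.3 FPKM in control cells and at 17.0, 9.47 and 9.36 in knockdown cells. The lowest control library was above the highest knockdown library, and repeat 1 was the highest of its group in both. The means were 53.8 ± 9.55 and 11.9 ± 4.36 FPKM (SD, n = 3 each), a ratio of 4.51. Knockdown polysomes held 26.2%, 19.6% and 19.4% of the control level in the 3 repeats. The polysome difference was -1.87, -2.23 and -2.25 (mean -2.12), the most negative of all 8074 genes.

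The metalloprotease's input level was the least even of the 3 genes between repeats. ADAM9 input stood at 53.1, 2.03 and 2.19 FPKM in control cells and at 42.2, 1.46 and 1.65 in knockdown cells. Control repeat 1 was 26.1 times repeat 2 and 24.2 times repeat 3, where the median gene differed by 1.70 and 1.68 times, and in knockdown cells the ratios were 28.9 and 25.6. The means of 19.1 ± 29.4 and 15.1 ± 23.5 FPKM (SD, n = 3 each) therefore rest on repeat 1. Within a repeat the knockdown input was 0.796, 0.719 and 0.753 of the control input, a difference of -0.32, -0.30 and -0.27 (mean -0.30).

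DUSP6 on polysomes stood at 24.4, 31.5 and 32.1 FPKM in control cells and at 12.1, 19.9 and 18.2 in knockdown cells. Here repeat 1 was the lowest of each group, and the lowest control library was still above the highest knockdown library. The means were 29.3 ± 4.29 and 16.7 ± 4.09 FPKM (SD, n = 3 each), a ratio of 1.75. In the 3 repeats the knockdown level was 49.8%, 63.3% and 56.7% of the control level, and the polysome difference was -0.95, -0.64 and -0.79 (mean -0.79), the 783rd most negative. Input DUSP6 stood at 22.5, 9.16 and 9.96 FPKM in control cells and at 17.6, 9.03 and 9.89 in knockdown cells, with means of 13.9 ± 7.50 and 12.2 ± 4.69 (SD, n = 3 each). Input levels of the phosphatase were all but equal in repeats 2 and 3, at 0.986 and 0.993 of control, and at 0.779 in repeat 1. Knockdown input repeat 3 (9.89) was above control input repeat 2 (9.16), so the direction in these repeats rests on matching by number.

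Input groups of all 3 genes overlapped, as they did for most genes: only 4.32% of the 8074 genes had input groups that did not overlap. By mean input difference EGFR ranked 865th, ADAM9 772nd and DUSP6 2572nd from the most negative. The median gene differed by -0.03 in input and by -0.03 on polysomes. The mean input differences turned with single libraries: without control input repeat 1 they were 0.21 for EGFR, 1.08 for ADAM9 and 0.26 for DUSP6. Without knockdown input repeat 2 they were 0.41 for ADAM9 and 0.04 for DUSP6, and without knockdown input repeat 3 that of ADAM9 was 0.36. Leaving out 1 library sets unlike repeats against each other, and repeat 1 was higher in both input groups. With repeat 1 left out of both groups the input differences were -0.24 for EGFR, -0.28 for ADAM9 and -0.01 for DUSP6.

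**Figure D1:**
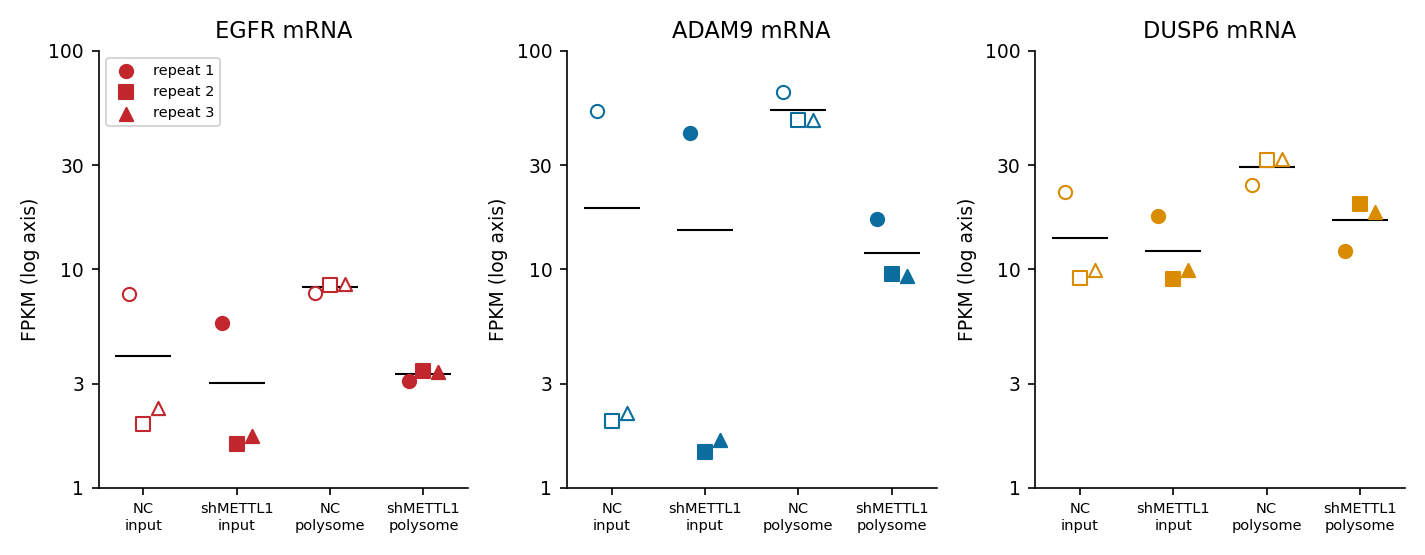
Level of EGFR, ADAM9 and DUSP6 (FPKM, log axis) in the 4 groups of 3 libraries, with open symbols for control (NC) and filled symbols for shMETTL1, circle, square and triangle for repeats 1, 2 and 3, and a black line at the mean. On polysomes each gene's 3 knockdown libraries lie below its 3 control libraries, while repeat 1 lies above the other repeats in input, most of all for ADAM9 (53.1 against 2.03 and 2.19 in control cells).

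Dividing the polysome level by the input level of the same repeat gives a level on polysomes relative to input, which depends on the input level as well. In repeats 2 and 3 the inputs of EGFR and ADAM9 were 1.46 to 2.31 FPKM, near the lowest listed value of 1. For ADAM9 in control cells, input was 53.1 FPKM in repeat 1 and 2.03 in repeat 2, while polysome levels were 64.8 and 48.2. Its high ratios in repeats 2 and 3 thus came with low input. In control cells this ratio was 1.01, 4.36 and 3.69 for EGFR, 1.22, 23.8 and 22.03 for ADAM9 and 1.08, 3.43 and 3.22 for DUSP6, where the median gene had 1.03, 1.60 and 1.58. In repeat 1 EGFR and DUSP6 were therefore near the median gene and ADAM9 was above it, where the SD of the ratio across genes was 0.156. In repeats 2 and 3 all 3 genes were above the median gene. In repeat 2, 87.1% of genes had a lower control ratio than EGFR, 99.98% a lower one than ADAM9 and 79.8% a lower one than DUSP6. In repeat 3 the shares were 82.8%, 99.96% and 78.4%.

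In knockdown cells the ratio was 0.542, 2.16 and 1.97 for EGFR, 0.402, 6.49 and 5.67 for ADAM9 and 0.691, 2.20 and 1.84 for DUSP6. Within every repeat it was below the control ratio. The knockdown ratio as a fraction of the control ratio was 0.537, 0.495 and 0.534 for the receptor EGFR, 0.329, 0.273 and 0.257 for ADAM9 and 0.639, 0.642 and 0.571 for DUSP6. These fractions lay closer together than the ratios themselves, whose control and knockdown values overlapped over the 3 repeats because repeat 1 was low in both. Over all genes, 16.7% had ratios that did not overlap between the groups, and none of the 3 was among them.

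As a difference of differences on the log2(FPKM + 1) scale, polysome minus input in knockdown minus the same in control, EGFR had -0.72, -0.91 and -0.84 (mean -0.82). ADAM9 had -1.55, -1.93 and -1.98 (mean -1.82), and DUSP6 had -0.61, -0.62 and -0.78 (mean -0.67). The median gene stood at 0.04. Counted from the most negative, ADAM9 was 9th, EGFR 866th and DUSP6 1335th of 8074. The order of the 3 genes was the same for the polysome difference and for this one, and DUSP6 and EGFR lay close to each other in the latter. Their order in it depended on the processing. DUSP6 was below EGFR after quantile normalization (-0.58 against -0.46) and less the trend on genomic span given below (-0.91 against -0.46). Without knockdown input repeat 1 it was also below EGFR (-0.39 against -0.38). With each library left out in turn the mean ran from -1.32 to -0.38 for EGFR, from -3.19 to -0.46 for ADAM9 and from -1.05 to -0.39 for DUSP6, below 0 throughout. A left-out library sets unlike repeats against each other, so these ranges also hold the gap between repeats.

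**Figure D2:**
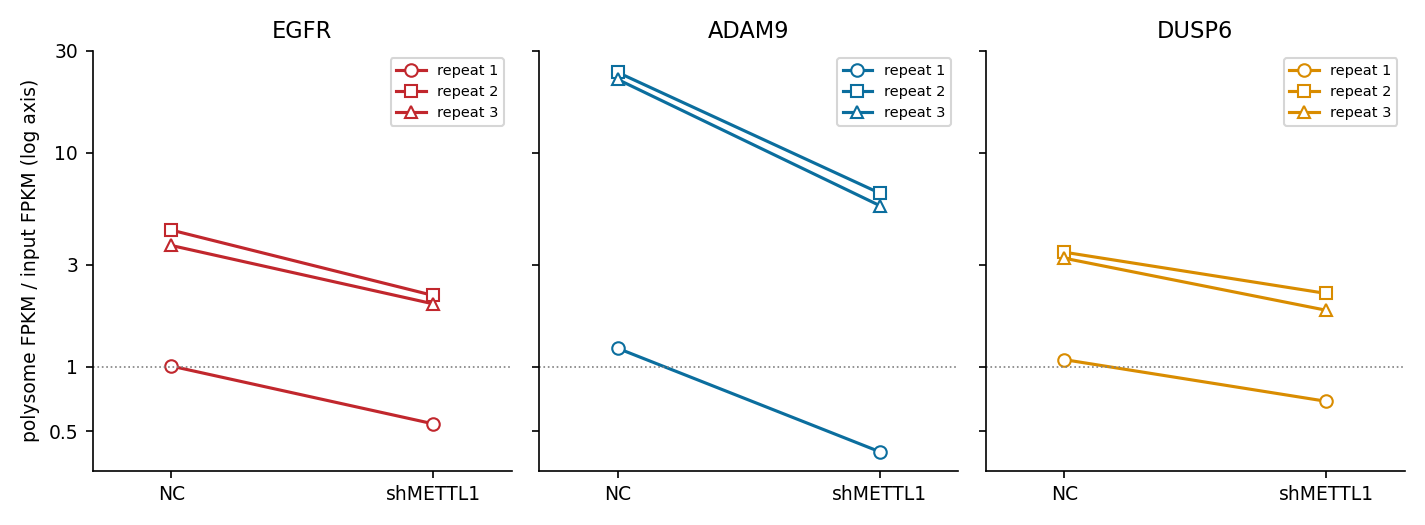
Polysome level divided by input level of the same repeat (log axis) in control (NC) and shMETTL1 cells, with 1 line per repeat. Each line slopes down, with repeat 1 running lower than repeats 2 and 3, from 1.22 to 0.402 for ADAM9 against 23.8 to 6.49 in repeat 2.

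**Figure D3:**
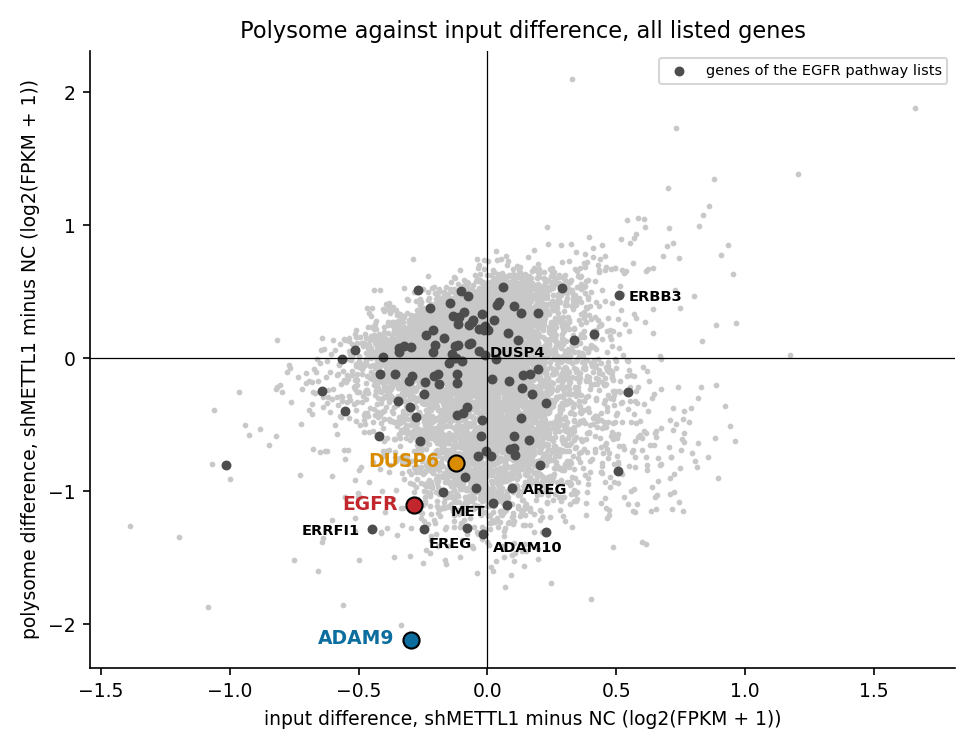
Mean polysome difference against mean input difference (both log2(FPKM + 1), shMETTL1 minus control) for the 8074 genes in grey, the pathway genes in dark and the 3 genes in colour. ADAM9 lies lowest of all genes at -2.12 on the polysome axis with an input difference of -0.30.

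The 3 genes varied alike over the 12 libraries: Pearson's r of log2(FPKM + 1) was 0.967 for EGFR with ADAM9, 0.942 for EGFR with DUSP6 and 0.886 for ADAM9 with DUSP6. These points share the 4 groups and the gap between repeat 1 and the others, so the correlations are descriptions. Over the 6 polysome libraries alone r was 0.934, 0.898 and 0.684 in the same order, and over the 6 input libraries 0.988, 0.990 and 0.983. Across the 12 libraries the genes most like EGFR were ARFGEF1 (r = 0.995), RINT1 (0.990) and NAB1 (0.989), those most like ADAM9 were SPTBN1 (0.998), CCDC47 (0.997) and RAB18 (0.997), and those most like DUSP6 were RBM34, DRAM2 and DDX1 (0.991 each). ARFGEF1 encodes an exchange factor for ARF GTPases in Golgi traffic, NAB1 a corepressor of EGR transcription factors, SPTBN1 a spectrin and RAB18 a small GTPase. Polysome differences of the genes most like EGFR were -1.33, -1.02 and -1.04, of those most like ADAM9 -0.75, -1.52 and -1.13, and of those most like DUSP6 -1.02, -0.60 and -1.17. These genes were picked for likeness over the same libraries, so differences in the same direction follow from that choice.

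The genes differ in length on the genome. EGFR spans 192.6 kb of chromosome 7 (55019017 to 55211628 in GRCh38.p14) and is longer than 95.2% of the genes listed, and the long noncoding RNA EGFR-AS1, not listed, overlaps it. DUSP6 spans 5.27 kb of chromosome 12 (89347235 to 89352501) and is longer than 10.7% of the genes, within the unlisted readthrough POC1B-DUSP6. The library kit marks strand by its name, but whether the counting used strand is not given in the sources used here, so reads of overlapping genes may not be told apart.

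ADAM9 spans 108.3 kb of chromosome 8 (38996973 to 39105261) and is longer than 87.5% of the genes. It overlaps TM2D2, which was listed at 24.7, 19.0 and 20.3 FPKM on control polysomes and at 20.0, 11.1 and 9.94 on knockdown polysomes. Long genes tended to be lower on knockdown polysomes: Spearman's rho between the polysome difference and the span was -0.455 across 8066 genes, which are not independent replicates. It was 0.105 for the input difference, and -0.288 for control input repeat 2 minus repeat 1, so an order by span was also present between repeats of 1 group. A smooth trend on span stood at -0.36 for EGFR, -0.35 for ADAM9 and 0.18 for DUSP6. Less this trend, the polysome differences were -0.75, -1.77 and -0.97. Short DUSP6 thus lay further below its trend than long EGFR did, and the part of span in their differences was not tested.

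**Figure D4:**
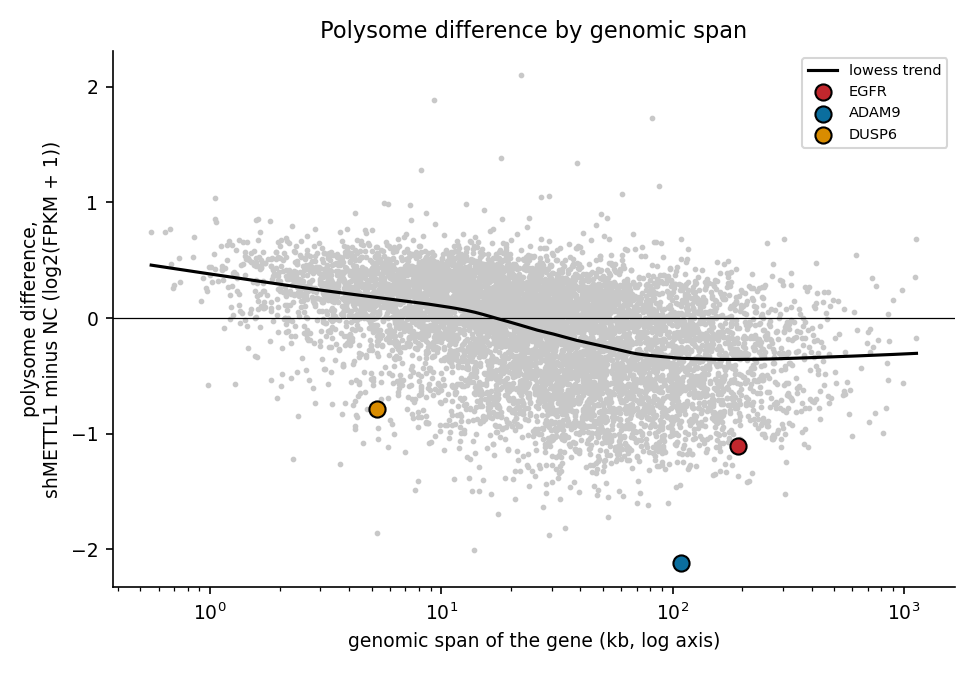
Polysome difference (log2(FPKM + 1), shMETTL1 minus control) against genomic span (kb, log axis) for 8066 genes, with a lowess line. The line falls from short to long genes, and ADAM9, EGFR and DUSP6 lie below it, by 1.77, 0.75 and 0.97.

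The pathway around the 3 genes was followed in 11 lists holding 160 other genes, of which 110 were listed. In a limma fit of all 12 libraries, 0.0% of the table was called at an adjusted p of 0.05 in the polysome, input or difference-of-differences comparison, although 609, 134 and 336 of 8074 had an unadjusted p below 0.05. With the 6 polysome libraries alone in the fit, 13.8% of genes passed (12.7% lower and 1.09% higher), and "fell" and "rose" refer to that fit below. That fit called 0 genes when control polysome repeat 2 or 3 or knockdown polysome repeat 3 was left out, and 0 with repeats 2 and 3 averaged as 1 sample. Of the 110 pathway genes 18 fell and 1 rose, 17.3% against the 13.8% of all genes. Polysome groups did not overlap for 45.5% of them (32 lower and 18 higher) against 40.2% of all genes (26.5% lower and 13.7% higher). Blocking on repeat in that fit, 32 fell and 14 rose, 41.8% against 42.0% of all genes, and without knockdown polysome repeat 1, 33 fell and 4 rose, 33.6% against 31.6%. The balance of directions depended on the scaling: after quantile normalization the same fit called 603 genes lower and 304 higher in place of 1029 and 88, 11.2% of all genes, and 14 pathway genes fell and 4 rose. The shares lay near those of all genes, so nothing about the pathway as a whole is read from them. The input comparison called none of them.

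Among the other ErbB receptors, which pair with EGFR, ERBB3 rose on polysomes. It stood at 4.34, 4.20 and 3.99 FPKM in control and at 6.19, 6.18 and 6.21 in knockdown cells, a difference of 0.48 (adjusted p = 0.0315, limma over 6 polysome libraries). Its input difference was 0.51. ERBB2 differed by 0.19 (adjusted p = 0.449, limma), and ERBB4 was not listed. Of the 11 ErbB ligands 3 were listed and all 3 had a polysome difference below 0, as did 53.0% of all genes. The median of the 3 was -0.98 against -0.03 over all genes. By repeat it was -0.37, -1.34 and -1.22, so repeat 1 showed a smaller difference. EREG, which encodes epiregulin, fell from 13.7, 16.4 and 16.9 to 5.72, 5.87 and 5.86 FPKM, a difference of -1.29 (adjusted p = 0.0074, limma). AREG, amphiregulin, stood at 17.5, 47.5 and 48.3 in control and 13.3, 18.2 and 20.1 in knockdown cells and did not pass (-0.98, adjusted p = 0.148, limma). HBEGF and TGFA were not listed.

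Of 8 other ADAM proteases 2 were listed. ADAM10, a protease that sheds some ErbB ligands, fell from 12.6, 13.0 and 12.9 to 3.47, 5.30 and 5.02 FPKM (-1.32, adjusted p = 0.0077, limma). Its input difference was -0.02. ADAM15 stood at 288 ± 14.7 and 344 ± 53.0 FPKM (SD, n = 3 each) and did not pass (0.25, adjusted p = 0.331, limma). ADAM17 was not listed. Of 13 listed regulators of these proteases 1 fell, TIMP3, an inhibitor of metalloproteases (-0.58, adjusted p = 0.0335, limma), a gene singled out after its values were seen. Over all genes 12.7% fell in that fit. TIMP1 differed by 0.42 (adjusted p = 0.453, limma).

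Between EGFR and ERK, 5 of 19 listed genes fell and none rose on polysomes, where 12.7% of all genes fell and 1.09% rose. The same shares stand beside the list counts that follow, and counts this small are not read against them. SOS1, the exchange factor that loads RAS, differed by -0.73 (adjusted p = 0.0143, limma) and NRAS by -0.58 (adjusted p = 0.0251). PTPN11 and RPS6KA3, singled out after their values were seen, also fell (-1.11 and -1.31). The adaptor GRB2 (0.10) and the kinases MAP2K1 (-0.12) and MAPK3 (0.30) did not pass, and BRAF was not listed. The median of the 19 was -0.12.

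DUSP6 belongs to the MAP kinase phosphatases, and 0 of the 7 other listed members passed, where 13.8% of all genes did. DUSP6 was picked with its values known, so it is given without a test and no call of it is set beside theirs. The polysome differences of the 7 others ran from -0.44 for DUSP1 to 0.24 for DUSP8, all above the -0.79 of DUSP6. DUSP4, which also acts on ERK, stood at 26.9, 29.9 and 29.7 FPKM in control and 28.0, 30.6 and 31.3 in knockdown cells. Among 9 other negative regulators 2 fell: ERRFI1, whose protein binds and inhibits the EGFR kinase, from 63.0, 71.7 and 69.3 to 29.3, 26.8 and 25.7 FPKM (-1.29, adjusted p = 0.0074, limma), and NF1, a brake on RAS singled out after its values were seen (-0.73). SPRED1 differed by -0.45 and did not pass (adjusted p = 0.0545, limma). SPRY2 and CBL were not listed.

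DUSP6 is also counted among genes that ERK induces. Of 14 other such genes 1 fell, MCL1 (-0.58), again singled out after its values were seen. The transcription factors ETV4 (0.40), ETV5 (0.00), FOSL1 (0.51) and EGR1 (-0.73), the cell cycle gene CCND1 (-0.37) and EPHA2 (-0.80) did not pass. In input RNA the differences were 0.04 for ETV4, -0.27 for FOSL1, -0.04 for EGR1, -0.08 for CCND1 and -0.02 for MCL1. EPHA2, a receptor of the ephrin family, had an input difference of -1.02, where that of DUSP6 was -0.12.

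Of 10 listed genes of the PI3K and AKT arm, which EGFR also feeds, 2 fell, among them PIK3CB, a catalytic subunit of PI3K singled out after its values were seen. Of 20 genes for EGFR endocytosis and sorting 4 fell, EPS15 (-0.62, adjusted p = 0.0271, limma) and, singled out afterwards, CLTC, RAB5A and USP8. Over all genes 12.7% fell in the same fit, and these small counts are not read against that share. Among 11 other receptor tyrosine kinases MET, the receptor for hepatocyte growth factor, fell from 894, 857 and 846 to 342, 376 and 351 FPKM (-1.28, adjusted p = 0.0076, limma). IGF1R (-0.18) and FGFR4 (0.27) did not pass. Setting every library to the same median raised polysome differences by 0.17, and so turned the medians of the ERK core, the phosphatases, the ERK-induced genes and the PI3K arm from below 0 to above it, while the median of the ligands stayed at -0.80. The median of all genes moved as well, from -0.03 to 0.14. The ERK core (0.06), ERK-induced genes (0.09) and PI3K arm (0.09) stayed below it, and the phosphatases (0.15) above it. After quantile normalization the median of the ERK-induced genes was -0.14, while those of the ERK core, phosphatases and PI3K arm were above 0.

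**Figure D5:**
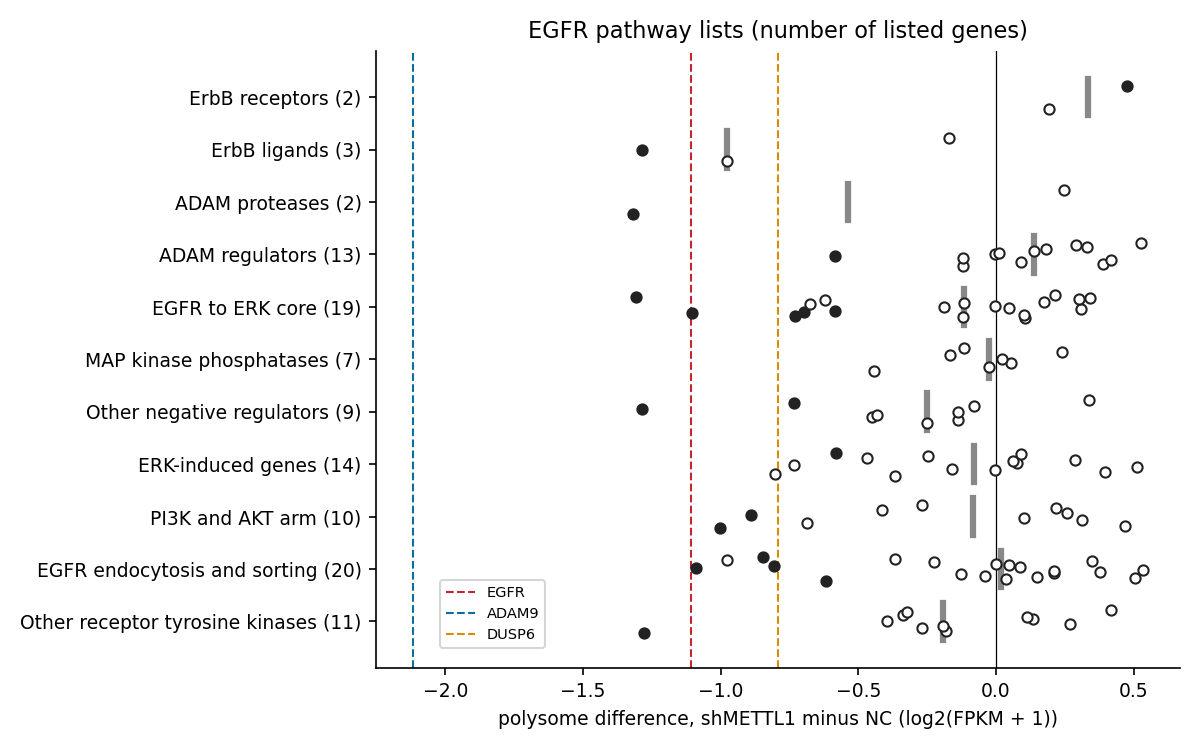
Polysome difference (log2(FPKM + 1), shMETTL1 minus control) of each listed pathway gene by list, filled where the gene was called when only the 6 polysome libraries were fitted, with a grey bar at the list median and dashed lines at EGFR, ADAM9 and DUSP6. No list gene reaches the -2.12 of ADAM9, and the filled points lie mostly below 0 (18 of 19), as did the genes called over the whole table (1029 of 1117).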

How the data were processed

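Input and polysome-bound mRNA of MHCC97H cells was analysed in 12 libraries, 4 groups of 3, mapped to groups and repeat numbers by title. The deposited unit is FPKM, in a table of 8074 genes with none below 1. The submitters' processing notes name Bowtie2, HTSeq and GRCh38 with neither version nor role, and the annotation is not given in the sources used here. FPKM sums per library ran from 482334 to 821900, and read depth is unknown. All columns were mapped, and the small RNA tables were not analysed here.

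Differences were taken on log2(FPKM + 1). limma 3.58.1 in R 4.3.3 was fitted over all 8074 genes with group means, an intensity trend in the prior, two-sided tests and Benjamini-Hochberg adjustment at 0.05. The first fit was of all 12 libraries. A second, of the 6 libraries of one kind, is used for the pathway genes because the first called none, a choice made after its result was seen. The 12-library fit was tested on simulated data with the same spread for every gene and no shift between repeats. These libraries do have such a shift, so the simulation does not show how the fit performs on them. The fit of the 6 libraries of one kind was not simulated. With 3 against 3 libraries an exact permutation test cannot go below 0.1. The members, the pathway lists and the named genes were chosen with earlier results of these data known. Genes were named by their place in the pathway or, for each of the 3 genes, as the 3 with the highest Pearson correlation over the libraries; others are said to be singled out, and a few pathway genes are counted in their lists but not reported by name. Libraries of one repeat number departed from their group means together, the lowest correlation across genes being 0.319, but over the difference of repeats 2 and 3 alone the correlations were 0.0121 to 0.230. Positions, spans and promoters came from RefSeq tables of GRCh38.p14, and 99.9% of genes had a span (lowess fraction 0.3).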

Additional observations from a re-analysis of the deposited data

Results flagged for a closer look

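Of the pathway genes named, 4 had polysome and input differences of opposite sign in every repeat. They are SOS1, SPRED1 and EPS15, lower on polysomes and higher in input, with polysome minus input differences of -0.84, -0.58 and -0.78, and FGFR4, the other way round, with 0.33. In limma over the 12 libraries none of these differences passed (adjusted p = 0.977 for each). The genes were picked for opposite signs, which alone is no test. EGFR, ADAM9 and DUSP6 are not among them, since their input differences were below 0 in every repeat as matched by number. For DUSP6 this rests on the match, since knockdown input repeat 3 (9.89 FPKM) was above control input repeat 2 (9.16).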

How the results depend on the processing

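No polysome or difference-of-differences value of EGFR, ADAM9 or DUSP6 changed sign under any alternative run. Leaving out each library in turn gave polysome differences of -1.15 to -1.07 for EGFR, -2.38 to -1.98 for ADAM9 and -0.92 to -0.59 for DUSP6. The EGFR difference was -1.30 with a pseudocount of 0.1, -0.80 with quantile normalization, -0.93 with equal library medians and -0.75 less the trend on span. Over all settings that left no library out, the polysome difference ran from -2.21 to -1.77 for ADAM9 and from -0.97 to -0.62 for DUSP6. Input differences turned with single input libraries: without control input repeat 1 they reversed to 0.21 for EGFR, 1.08 for ADAM9 and 0.26 for DUSP6, without knockdown input repeat 2 to 0.41 for ADAM9 and 0.04 for DUSP6, and without knockdown input repeat 3 to 0.36 for ADAM9. Over all left-out libraries they ran from -0.73 to 0.21 for EGFR, -1.66 to 1.08 for ADAM9 and -0.40 to 0.26 for DUSP6, and the differences of differences from -1.32 to -0.38, -3.19 to -0.46 and -1.05 to -0.39. A left-out library sets unlike repeats against each other. With repeat 1 left out of both input groups the input differences kept their sign, at -0.24 for EGFR, -0.28 for ADAM9 and -0.01 for DUSP6.

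The limma polysome comparison called 0 genes over 12 libraries, 0 to 4 with a library left out and 1117 with the 6 polysome libraries alone. Alternatives of that smaller fit were chosen after seeing the data, and it gave 907 calls after quantile normalization, 0 with repeats 2 and 3 averaged, 5084 with repeats 2 and 3 only, and 0 to 2551 with a library left out (563 without control polysome repeat 1, 584 without knockdown polysome repeat 2, 2551 without knockdown polysome repeat 1). The replicate block, which pairs libraries by repeat number, gave 1 call on polysomes (AZGP1) and 1 in input over 12 libraries, 3392 in the polysome libraries alone and 1 in the input libraries alone. Input gave 4213 calls with repeats 2 and 3 only. The cause of these shifts was not tested. The difference of differences gave 0 calls, and 0 to 3 with a library left out. The table gives no depth, so counting error could not be set beside these values, and genes below an FPKM of 1 in any library are not seen.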
